A study of Mus musculus with 4 samples.

Results

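Among single cells of the mouse Mesp1 lineage, 99 of 22625 retained cells carried transcripts of myeloid blood cells, and 72 of these 99 had at least 1 transcript of the C1q complement genes that mark macrophages. The cells were chosen by a rule on measured counts: at least 3 of the 6 genes Fcer1g, Tyrobp, Csf1r, Ptprc, C1qb and Cx3cr1 with 1 or more UMIs, haemoglobin below 5% of UMIs, and Cdh5, a gene of endothelial cells, at 0. A UMI is 1 captured and counted transcript molecule. C1qb is both a rule gene and a C1q gene, so counts of cells with C1q describe the choice and do not test it. The cells were proposed as embryonic macrophages. That name fits the marker genes of the 62 cells in which C1q was high (by the limits given below). However, 45 of the 99 cells carried both Mpo and Prtn3, enzymes of granulocyte and monocyte granules. In 28 cells these genes were high where C1q was low, by the same limits. The whole set is therefore called here by its leading genes, Fcer1g/Tyrobp cells.

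There were 4 libraries, each of a different embryonic day: E8.0 and E8.25 were the early and E9.5 and E10.5 the late libraries. All were of the genotype Mesp1Cre;Rosa26-GFPflox/+ on the Swiss Webster strain, so every group carried Cre recombinase made from the Mesp1 gene of early mesoderm, which switches on GFP permanently in a cell and its descendants. Each library came from pooled embryos, and living (DAPI-negative) GFP-positive cells were sorted after trypsin digestion. The early libraries came from the upper part of the body and the late ones from the heart and pharyngeal apparatus, so stage cannot be told apart from tissue between the earlier and the later pair, and no stage had a replicate. Retained cells had a median of 15611 to 35467 UMIs in the 4 libraries. Between 16 and 88 cell barcodes were shared by any 2 libraries, and 0 of them belonged to Fcer1g/Tyrobp cells.

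The macrophages of an early embryo come from progenitors in the yolk sac, migrate into the tissues, and remove dying cells and debris before the bone marrow exists. Their survival depends on Csf1r, the receptor for the growth factors Csf1 and Il34, and their identity on the transcription factor PU.1, the product of Spi1. Fcer1g and Tyrobp encode small signalling chains that attach to many activating receptors of innate immune cells. C1qa, C1qb and C1qc encode the 3 chains of C1q, the molecule that starts the classical complement pathway, and are made mainly by macrophages. Mpo (myeloperoxidase) and Prtn3 (proteinase 3) are made by progenitors of granulocytes and monocytes and stored in their primary granules.

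The promoters of 3 of the genes on which the description of these cells turns are shown because each holds the letters GAGGAAGT, a form of the purine-rich site that PU.1 is known to bind. The sequences are the 250 bases before the first listed transcript start (RefSeq, GRCm38.p6), written 5' to 3' on the strand of the gene, with the matching letters, or their reverse complement, in capitals. The C1qc window lies at chr4:136892915-136893164 on the minus strand, the Mpo window at chr11:87793534-87793783 on the plus strand, and the Prtn3 window at chr10:79879417-79879666 on the plus strand. The match begins 195 bases before the start in C1qc, where it reads on the opposite strand, 224 bases before it in Mpo and 95 bases before it in Prtn3.
C1qc: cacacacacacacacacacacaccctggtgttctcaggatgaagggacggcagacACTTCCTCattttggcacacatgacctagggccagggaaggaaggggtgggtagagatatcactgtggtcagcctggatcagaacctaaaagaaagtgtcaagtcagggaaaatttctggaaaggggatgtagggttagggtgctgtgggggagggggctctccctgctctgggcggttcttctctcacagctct
Mpo: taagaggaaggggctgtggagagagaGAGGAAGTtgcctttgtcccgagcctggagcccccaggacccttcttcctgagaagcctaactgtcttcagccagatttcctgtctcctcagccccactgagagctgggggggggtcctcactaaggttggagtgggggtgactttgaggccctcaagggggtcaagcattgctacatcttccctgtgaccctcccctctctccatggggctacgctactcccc
Prtn3: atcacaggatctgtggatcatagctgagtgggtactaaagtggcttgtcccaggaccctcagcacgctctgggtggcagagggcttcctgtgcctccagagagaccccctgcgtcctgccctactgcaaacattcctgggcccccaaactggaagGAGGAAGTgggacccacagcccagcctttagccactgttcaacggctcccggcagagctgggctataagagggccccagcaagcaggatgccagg

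Both strands were searched, and GAGGAAGT was found in 2.44% of the 27025 promoters of the table and in 2.29% of the 10525 matched genes that were tested against the other cells. It was present in 69 of 1739 matched genes called higher in the Fcer1g/Tyrobp cells (3.97%) and in 29 of 281 matched genes that were called higher by 16-fold or more (10.3%). Of the 12 matched genes among the 15 named as highest against the other cells, Bcl2a1b and C1qc held it. It was absent from the windows of the 4 matched rule genes, Fcer1g, Ptprc, C1qb and Cx3cr1, and from those of the 7 matched genes named as lowest. A second motif, the ETS-IRF composite site, in which sites of PU.1 and of interferon regulatory factors lie side by side, was present in 2.38% of all promoters, 1.96% of tested genes, 1.96% of genes called higher and 3.91% of those called higher by 16-fold or more. These are counts of letters in 1 window per gene, given without a test, and the absence of a match says nothing about binding.

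No Fcer1g/Tyrobp cell was found at the early stages, and they made up about 1 in 100 cells at E10.5. There were 0 of 7577 retained cells at E8.0, and 0 of 2954 at E8.25. Taken as 3 cells, the limit that a count of 0 allows was 0.0396% and 0.102%, and the upper bounds of the exact intervals were 0.0487% and 0.125%. At E9.5 there were 12 of 4052 cells (0.296%, 95% interval 0.153 to 0.517), and at E10.5 there were 87 of 8042 (1.08%, 0.867 to 1.33). Intervals of shares are exact Clopper-Pearson intervals and those of expression levels exact Poisson intervals, and both cover counting error only. The intervals of E9.5 and E10.5 did not overlap, but with 1 library per stage the difference was not tested, and the yield of the sort and digestion at each stage was not measured here.

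The number of rule genes per cell had a tail at the later stages only. At E8.0, 61 retained cells had exactly 1 of the 6 genes and none had more, and at E8.25 this was 50 cells. At E9.5, 73 cells had 1 gene, 7 had 2, and then 2, 3, 2 and 5 cells had 3, 4, 5 and all 6 genes. At E10.5 the same counts were 548, 26, 12, 7, 26 and 46, so the distribution had a second peak at 5 and 6 genes. Of the 91 cells at E10.5 with 3 or more genes, 1 was left out for haemoglobin and 3 for Cdh5.

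**Figure D1:**
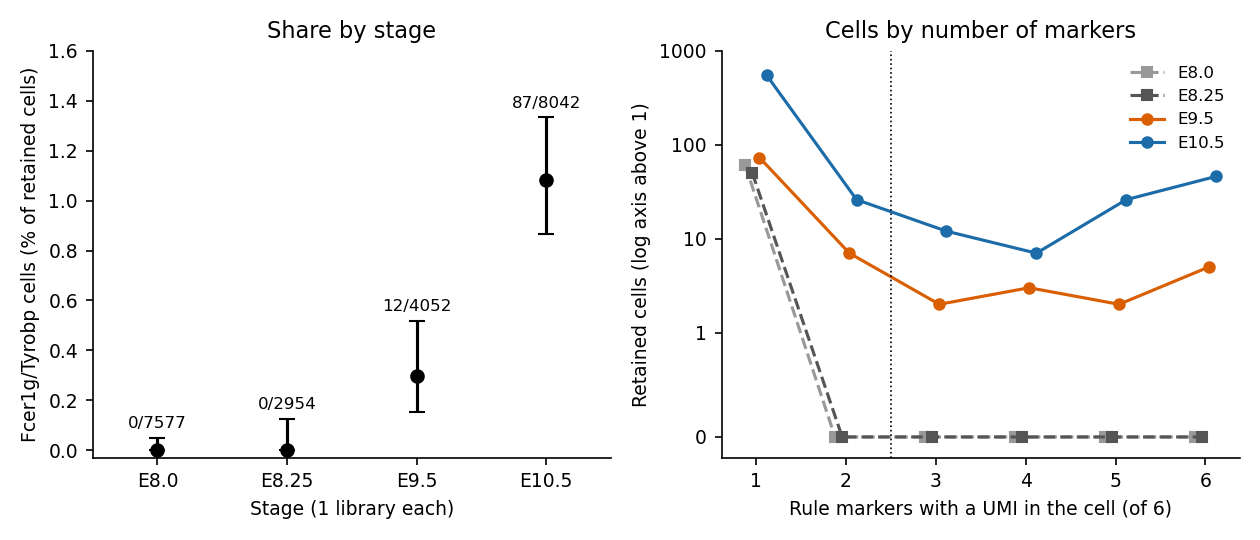
Left, Fcer1g/Tyrobp cells as a percentage of retained cells by stage (1 library each), with exact 95% binomial intervals and the counts above them. Right, number of retained cells (log axis above 1) by how many of the 6 rule genes had a UMI, with a dotted line at the limit of the rule. The share was 0 at E8.0 and E8.25, 0.296% at E9.5, then 1.08% at E10.5, and only the later libraries held cells with more than 1 gene.

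The cells next to the limit were mixed. The 7 cells with 2 genes at E9.5 all had Fcer1g with Tyrobp, all had Spi1, 5 had Mpo or Prtn3, 5 had Itga2b and 4 had Gp9, the last pair being genes of platelets and their precursors. Of the 26 cells with 2 genes at E10.5, 18 had Fcer1g, 17 had Tyrobp, 10 had C1qb, 4 had Spi1, and 6 were red blood cells by haemoglobin (20% of UMIs or more). Just inside the limit, the 11 cells with 3 genes at E10.5 all had Spi1, 10 had Mpo or Prtn3, 10 had no C1q UMI, and 6 carried a doublet mark. In all, 11 of 87 cells at E10.5 and 0 of 12 at E9.5 were marked as doublets (droplets that may hold 2 cells), and without the marked cells the shares were 0.306% and 1.01%. With each cell thinned to 5000 UMIs, 9 cells remained at E9.5 (0.223%) and 77 at E10.5 (0.957%).

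Fcer1g/Tyrobp cells held more RNA molecules than most of the cells around them. They had a median of 25508 UMIs at E9.5 (7789 to 44708) and 29458 at E10.5 (8428 to 58032), against 17396 and 15547 in all other cells. Endothelial cells, used below as the nearest comparison because they too arise from mesoderm and line the vessels in which blood cells travel, numbered 161 at E9.5, then 352 at E10.5, with medians of 17283 and 18660 UMIs. A cell with more UMIs passes a rule of detected genes more easily, and the thinned shares above were taken at equal depth.

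The levels of the 6 rule genes chose the cells and are given as a description. Levels are in CPM, the UMIs of a gene per 1000000 UMIs of the group, and a UMI is counted from the 3' end of a transcript whatever its length. Fcer1g stood at 728 CPM at E9.5 (639 to 826) and 774 at E10.5 (740 to 809), Tyrobp at 707 (619 to 804) and 840 (805 to 876), and both were detected in every Fcer1g/Tyrobp cell. In all other cells Fcer1g was at 3.92 CPM at both stages, in 1.31% and 2.72% of cells, and Tyrobp at 0.603 and 1.31 CPM. The other 4 rule genes were each missing from some of the cells. Csf1r was at 134 CPM (97.4 to 180) in 10 of 12 cells at E9.5 and at 168 CPM (153 to 185) in 72 of 87 at E10.5. Ptprc, the pan-leukocyte phosphatase CD45, was at 67.0 CPM in 10 cells and 60.2 CPM in 70 cells. Cx3cr1, the receptor for the chemokine fractalkine, was at 158 CPM in 8 cells and 264 CPM in 71 cells. C1qb was at 667 CPM in 6 of 12 cells and 751 CPM in 63 of 87 cells, so a group without it existed at both stages.

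Individual cells spread widely. Tyrobp ranged from 86.4 to 1846 CPM between cells at E9.5 (median 632) and at the later stage from 51.2 to 2112 (median 822). Fcer1g ranged from 159 to 1832 CPM (median 638) and from 76.8 to 2152 (median 769). The ranges of both genes overlapped between the stages over nearly their whole width. At E8.0 and E8.25, where no cell met the rule, Ptprc and C1qb had 0 UMIs, Fcer1g had 28 and 43, Tyrobp 13 and 9, Csf1r 17 and 12, and Cx3cr1 6 and 3, each over the whole library.

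By limits on the C1q genes and on Mpo with Prtn3, most of the 99 cells were divided into 2 kinds. The summed level of C1qa, C1qb and C1qc was 0 in 5 of 12 cells at E9.5 and 22 of 87 at E10.5, lay above 0 but under 500 CPM in 2 and 8 cells, and reached 500 CPM in 5 and 57 cells, in which it was at least 899 and 801 CPM. Mpo and Prtn3 together reached 3366 CPM at E9.5, then 5649 CPM at E10.5. With limits of 500 CPM, chosen after the values were seen, E9.5 held 5 C1q cells, 5 Mpo/Prtn3 cells, 0 cells with both and 2 with neither. E10.5 held 56 C1q cells (64.4%, 53.4 to 74.4), 23 Mpo/Prtn3 cells (26.4%, 17.6 to 37.0), 1 with both and 7 with neither. The limits moved these counts. Over both libraries they gave 61 C1q cells, 28 Mpo/Prtn3 cells, 1 with both and 9 with neither, at limits of 250 CPM the counts were 55, 32, 8 and 4, and at 1000 CPM they were 56, 20, 0 and 23.

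The 3 C1q genes lie beside each other on chromosome 4 (C1qb at 136880126 to 136886200, C1qc at 136889801 to 136892936, C1qa at 136895916 to 136898844, GRCm38.p6), and 58 of 87 cells at E10.5 and 4 of 12 at E9.5 had UMIs of all 3. Mpo (chromosome 11, 87793784 to 87804412) and Prtn3 (chromosome 10, 79879667 to 79883174) lie on different chromosomes and were found together in 38 and 7 cells. Mpo and Prtn3 were at 0 in 35 of the 56 C1q cells at E10.5 and 3 of the 5 at E9.5, and the C1q genes were at 0 in 17 of the 23 Mpo/Prtn3 cells and 4 of the 5. Over the 87 cells at E10.5, each thinned to 5000 UMIs, Spearman's rho between the C1q sum and the Mpo and Prtn3 sum was -0.72. The points share 1 library and are cells of few embryos, and the value is a description.

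Depth and doublets differed between the 2 kinds. The median UMI count at E10.5 was 26269 in C1q cells and 36039 in Mpo/Prtn3 cells, and 3 of 56 and 6 of 23 cells carried a doublet mark. At E9.5 the medians were 25762 and 25463 UMIs and no cell was marked. The 44 cells with all 6 rule genes at E10.5 had a median C1q sum of 2364 CPM, as a rule that counts C1qb requires C1q in them, and the 11 cells with 3 genes had a median Mpo and Prtn3 sum of 3359 CPM. The part of depth and doublets in the division was not tested.

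**Figure D2:**
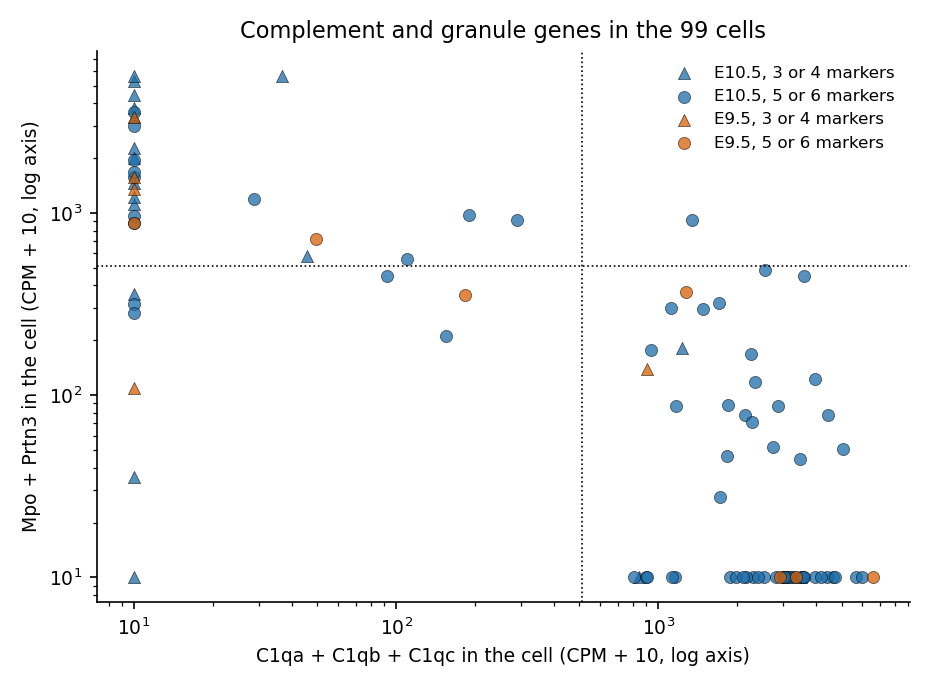
Each point is 1 of the 99 Fcer1g/Tyrobp cells, placed by its summed C1qa, C1qb and C1qc level and its summed Mpo and Prtn3 level (both CPM plus 10, log axes). Colour gives the stage, triangles have 3 or 4 rule genes and circles 5 or 6, and dotted lines mark the limits of 500 CPM. Of the 99 cells, 1 lies above both limits.

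General myeloid genes were present in both kinds. Spi1 was at 771 CPM in C1q cells and 510 CPM in Mpo/Prtn3 cells at E9.5, and at 399 and 410 CPM at E10.5. Irf8, a transcription factor of macrophages and dendritic cells, was at 230 and 289 CPM at E9.5 and at 152 and 214 CPM at E10.5. Coro1a, an actin-binding protein of leukocytes, was at 941 and 814 CPM and then at 947 and 959 CPM, and Rac2, a small GTPase of blood cells, at 338 and 571 CPM and then at 423 and 508 CPM. Over the 24 measured genes of immune receptor signalling, the sum was 3072 CPM in C1q cells and 2519 CPM in Mpo/Prtn3 cells at E9.5, and 3203 and 2742 CPM at E10.5. These values are those of cells divided by their own C1q, Mpo and Prtn3 levels, and no difference between the kinds was tested.

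Receptors and adaptors for the uptake of debris stood higher in C1q cells. Mrc1, the mannose receptor, was at 223 CPM in C1q cells and 0 in Mpo/Prtn3 cells at E9.5, and at 224 CPM and 0 at E10.5, where 87.5% of C1q cells had a UMI. Dab2, an adaptor for endocytosis, was at 562 and 7.61 CPM at E9.5 and at 715 and 22.3 CPM at E10.5. Gas6, a bridging ligand between dying cells and their phagocytes, was at 135 CPM and 0, and then at 103 CPM and 0. The scavenger receptor Stab1 was at 115 CPM and 0 at E9.5 and at 174 and 8.65 CPM at E10.5. Over the 14 scavenger and phagocytic receptors of the list, C1q cells held 670 CPM against 22.8 in Mpo/Prtn3 cells at E9.5, and 654 against 54.4 at E10.5. At E9.5 single C1q cells ranged from 67.6 to 1722 CPM (median 159) and single Mpo/Prtn3 cells from 0 to 78.3 CPM. At E10.5 the ranges were 52.8 to 3315 CPM (median 613) in C1q cells and 0 to 248 CPM in Mpo/Prtn3 cells. The ranges overlapped at both stages.

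Lysosomal and iron genes followed the same side. Ctsb, the lysosomal protease cathepsin B, was at 853 CPM in C1q cells and 53.3 CPM in Mpo/Prtn3 cells at E9.5, and at 986 and 134 CPM at E10.5. Lgmn, another lysosomal protease, was at 217 CPM and 0, and then at 503 and 44.5 CPM. Cathepsin C (Ctsc), which activates granule proteases, had no such order, with 528 and 259 CPM at E9.5 and 427 and 712 CPM at E10.5. Hmox1, which breaks down haem, was at 379 CPM and 0 at E9.5 and at 285 and 18.5 CPM at E10.5, and Slc40a1, the iron exporter, at 54.1 CPM and 0 and then at 75.8 CPM and 0. Apoe, a lipid carrier, was at 108 and 53.3 CPM at E9.5 and at 1210 and 229 CPM at E10.5. Across the 87 cells at E10.5 the C1q sum had a rho of 0.63 with the lysosome list, 0.62 with Apoe, 0.45 with Mrc1, 0.37 with Csf1r and 0.23 with Spi1, all on thinned counts and without a test.

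Several progenitor genes stood higher in Mpo/Prtn3 cells than in C1q cells. Cd34, a surface protein of blood progenitors, was at 213 CPM in Mpo/Prtn3 cells and 20.3 CPM in C1q cells at E9.5, and at 173 and 22.1 CPM at E10.5. Myb, the progenitor transcription factor, was at 60.9 CPM and 0, and then at 32.1 and 4.70 CPM. Runx1, required for blood formation, was at 122 and 47.4 CPM at E9.5 and at 72.9 and 36.9 CPM at E10.5. Hp, haptoglobin, a protein of myeloid granules, was at 160 and 33.8 CPM and then at 251 and 20.1 CPM. The 8 genes of erythro-myeloid progenitors summed to 411 CPM in Mpo/Prtn3 cells and 33.8 CPM in C1q cells at E9.5, and to 282 and 47.6 CPM at E10.5. Among them, Gata1, Gata2 and Hlf were at 0 in Mpo/Prtn3 cells at E9.5, and Kit had 3 UMIs in 1 cell. In the comparisons of the whole set below, Cd34 and Myb were called higher than in other cells, and Meis1, Gata1 and Angpt1 lower. Against endothelial cells Myb was called higher, and Cd34 and Gata2 lower. Some genes did not keep their order between the stages: Plac8, a gene of myeloid cells, was at 609 CPM in Mpo/Prtn3 cells and 731 CPM in C1q cells at E9.5, but at 958 and 172 CPM at E10.5.

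Several other genes of granulocytes and of mast cells were at 0 or confined to few of the Mpo/Prtn3 cells. Camp, Ngp, Fcnb, Chil3 and Ly6c2, genes of later granulocytes and monocytes, had 0 UMIs in all 99 cells, as did Ctsg, a granule protease. Elane, neutrophil elastase, had 0 UMIs at E9.5 and stood at 65.5 CPM in the Mpo/Prtn3 cells at E10.5, where 45 of its 53 UMIs came from 2 cells. S100a8 and S100a9, calcium-binding proteins of neutrophils, had 6 and 3 UMIs in those cells. Cpa3, a protease of mast cells and their precursors, had 46 UMIs there, in 4 of 23 cells, all 4 of them marked as doublets. Hdc, which makes histamine, had 11 UMIs in 2 cells, while Cma1, Mcpt4, Tpsb2 and Ms4a2 of mature mast cells were at 0. Genes of megakaryocytes summed to 91.5 CPM in Mpo/Prtn3 cells at E10.5, from 0 to 302 CPM in single cells, against 7.38 CPM in C1q cells. In the 17 unmarked Mpo/Prtn3 cells at E10.5, a comparison added after the data had been seen, Elane stood at 52.5 CPM, Cpa3 at 0, the megakaryocyte list at 72.9 CPM and the erythro-myeloid progenitor list at 254 CPM.

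**Figure D3:**
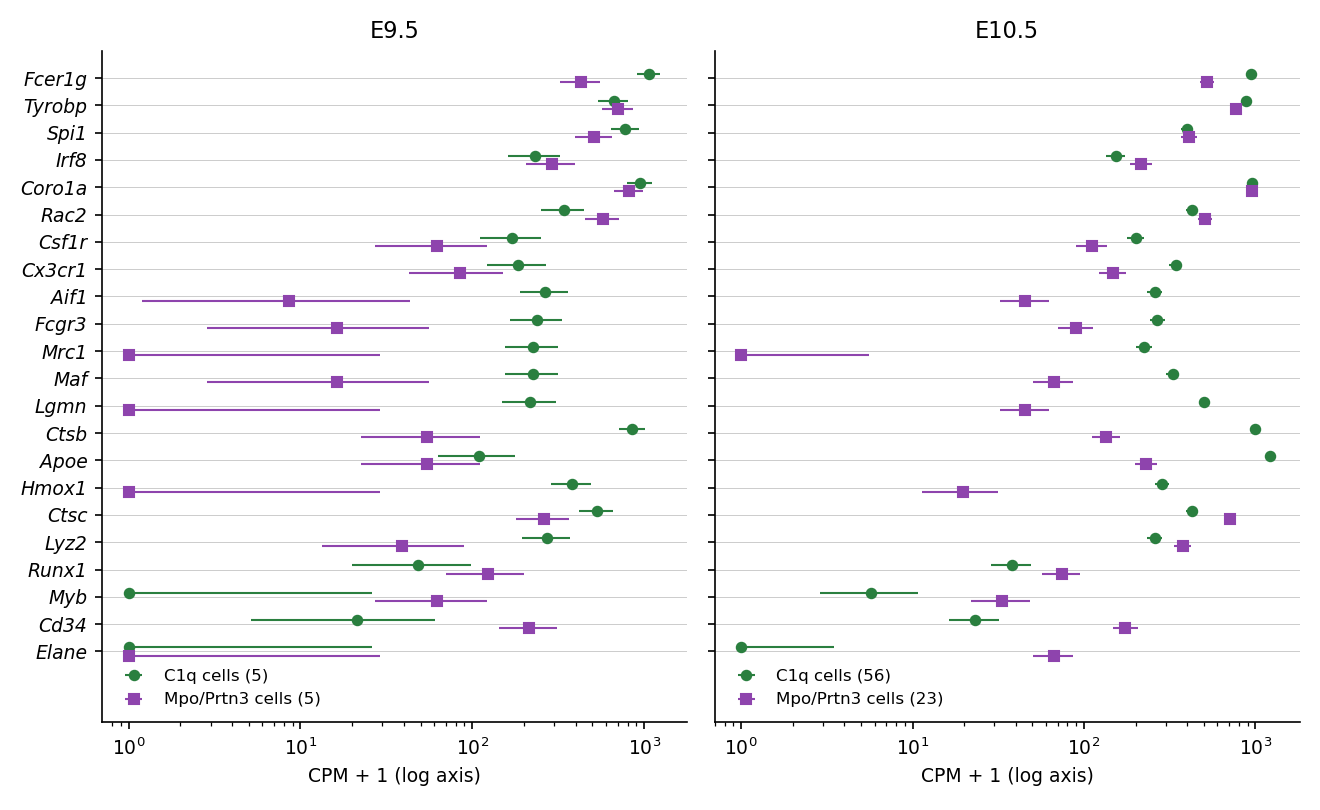
Levels (CPM plus 1, log axis) of 22 genes in C1q cells (green circles) and Mpo/Prtn3 cells (purple squares) at E9.5 and E10.5, with exact 95% Poisson intervals. Tyrobp, Spi1, Irf8, Coro1a and Rac2 lie within 2-fold of each other in the pair, Mrc1, Maf, Lgmn, Ctsb and Hmox1 lie higher in C1q cells at both stages, and Cd34, Myb and Runx1 lie higher in Mpo/Prtn3 cells at both stages.

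To place the whole set among the other cells, summed counts of the 12 and 87 Fcer1g/Tyrobp cells were compared with those of all other retained cells of the same 2 libraries, with the library as a block (edgeR's quasi-likelihood test). Because the cells were picked on 6 genes of one cell type, other genes of that type had to differ, and the calls are a description of the cells rather than a result of a test. Of 14219 genes, 16.0% were called higher and 19.0% lower, which was 2271 and 2702 genes at an adjusted p under 0.05. Against endothelial cells 10090 genes could be tested, of which 17.4% were called higher and 21.4% lower, or 1753 and 2156 genes. The median log2 fold change over all genes was -0.17 against the other cells (-0.28 with size factors of DESeq2) and -0.04 against endothelial cells. Values below are log2 fold changes ± SE, with 2 libraries a side. The SE is the size of the log2 fold change divided by the square root of the test's F statistic. It does not measure the spread between the 2 libraries.

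Surface and signalling genes of macrophages were high in the summed set. Of 14 tested macrophage genes that the rule did not use, 13 were called higher than in other cells (median log2 fold change 8.70) and none lower, and the exception was Cd36. Of 22 tested genes of immune receptor signalling, 22 were called higher (median 6.01). C1qa stood at 390 CPM at E9.5, then 425 CPM at E10.5, and its log2 fold change was 11.02 ± 0.27. Fcgr1, the high-affinity antibody receptor, stood at 104 and 156 CPM (10.40 ± 0.33), and Fcgr3, the low-affinity one, at 113 and 189 CPM. Trem2, a lipid-sensing receptor that signals through Tyrobp, was at 54.8 and 131 CPM, Aif1 at 134 and 170 CPM, and Adgre1, the F4/80 antigen, at 39.6 and 34 CPM. Laptm5 (241 and 248 CPM), Ptpn6 (174 and 140 CPM) and Lyn (125 and 104 CPM), which tune receptor signals, kept similar levels at both stages.

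Transcription factors of the myeloid lineage were high as well. Spi1 had UMIs in 12 of 12 and 87 of 87 cells, at 591 and 392 CPM, its log2 fold change being 8.98 ± 0.23 against other cells. Irf8 stood at 235 and 170 CPM (7.16 ± 0.23). Maf, a factor of mature macrophages, was at 113 and 215 CPM. Of the 17 tested factors, 12 were called higher (median 3.67) and 1 lower. The lower one was Id3, an inhibitor of helix-loop-helix factors, at 36.5 CPM at E9.5, then 88.0 CPM at E10.5 against 626 and 479 CPM in other cells and 1052 and 781 CPM in endothelial cells.

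Receptors for chemoattractants and the chemokines themselves were also high. Of 7 tested receptors for complement fragments and other chemoattractants, 6 were called higher (median 9.07), with Cxcr4 not called. C5ar1, the receptor for the complement fragment C5a, stood at 107 and 71.2 CPM (11.25 ± 0.43), and C3ar1, that for C3a, at 82.2 and 77.8 CPM. Of 10 tested chemokines 8 were called higher (median 7.04). Ccl9 was at 152 and 176 CPM (10.27 ± 0.30), Ccl6 at 146 and 80.5 CPM, and Ccl3 at 33.5 and 91.1 CPM. Ccl4 had the highest log2 fold change of the named genes (13.40 ± 0.78), but 98.3% of its 183 CPM at E9.5 came from 1 of the 12 cells, and at E10.5 it stood at 15.2 CPM. Pf4, a chemokine of platelets and of some macrophages, was higher in endothelial cells (111 and 325 CPM) than in the Fcer1g/Tyrobp cells (76.1 and 96.6 CPM). Cxcl16 had 0 UMIs in the Fcer1g/Tyrobp cells against 24.9 and 8.53 CPM in endothelial cells.

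Cytokines were sparse, with one exception. Tgfb1 stood at 253 and 248 CPM at E9.5 and E10.5, Grn at 76.1 and 82.9 CPM and Tnf at 21.3 and 6.26 CPM, and these 3 of 8 tested genes were called higher than in other cells. Pdgfa and Vegfa were called lower, Il10 and Osm had 0 UMIs, and the list's median was -0.16. Growth factor receptors were found at low levels: Csf2ra at 9.14 and 29.3 CPM, Csf2rb at 6.09 and 27.4 CPM, Csf3r at 21.3 and 17.6 CPM, and Flt3 at 0.

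The ligands of Csf1r were not found in the cells themselves. Csf1 and Il34 had 0 UMIs among 328339 at E9.5, then 2557821 at E10.5. In endothelial cells Csf1 stood at 5.95 and 2.5 CPM and in all other cells at 2.04 and 2.22 CPM, while Il34 reached 0.0357 CPM in other cells at E10.5. Cx3cl1, the ligand of Cx3cr1, stood at 0 and 1.17 CPM in the Fcer1g/Tyrobp cells and at 3.15 and 2.65 CPM in endothelial cells. Csf1 was called lower in the Fcer1g/Tyrobp cells than in other cells, and cells outside the sorted lineage were not measured.

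Lysosome, iron and lipid genes had smaller differences. Of 18 lysosomal genes 12 were called higher than in other cells (median 1.33) and 11 higher than in endothelial cells (median 0.78), with Ctsl, Ctsh and Cd63 called lower than in endothelial cells. Ctsz stood at 682 and 618 CPM, Ctsb at 423 and 634 CPM, Lamp1 at 393 and 436 CPM, and Ctss, a cathepsin of antigen-presenting cells, at 15.2 and 93.4 CPM (10.32 ± 0.47). Of 10 iron and haem genes 7 were called higher (median 1.54) and Blvrb lower. Ftl1, the ferritin light chain, stood at 6597 and 7518 CPM against 3646 and 3104 CPM in endothelial cells, and Hmox1 at 180 and 172 CPM. Slc40a1 stood at 24.4 and 44.2 CPM, but at E9.5 all of its UMIs came from a single cell. Lyve1, a hyaluronan receptor of some macrophages and vessels, stood at 113 and 22.7 CPM, with 91.9% of its UMIs at E9.5 from a single cell. Lpl, lipoprotein lipase, stood at 274 and 307 CPM against 13.3 and 8.38 CPM in endothelial cells. Apoe, at 101 and 798 CPM, was above the other cells (216 and 159 CPM) at E10.5 only and below endothelial cells (1783 and 1129 CPM) at both stages.

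Genes of antigen presentation were high for class I and near 0 for class II. B2m stood at 752 and 770 CPM, H2-D1 at 238 and 138 CPM and H2-K1 at 101 and 92.7 CPM, and all 4 tested class I genes were called higher (median 3.36). Of the class II genes, Cd74 stood at 0 and 17.2 CPM, H2-Aa at 0 and 2.74 CPM and Ciita, the class II activator, at 0, and none of the 3 tested was called. Of 8 tested genes of the microglia list, 4 were called higher than in other cells (Fcrls, Selplg and P2ry13 among them) and 3 lower (Tmem119, Olfml3 and Sall1). P2ry12 stood at 0 and 18 CPM (39.1% of cells at E10.5), Gpr34 at 0 and 18, Timd4 at 0 and 12.1 and Tmem119 at 0 and 7.04 (against 20.2 and 35.6 in other cells), while Sall1, Cd163, Marco and Stab2 had 0 UMIs. At E9.5, 0 UMIs of P2ry12 allowed up to 11.2 CPM (the upper bound of the exact interval), a limit that holds for each gene at 0 there.

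Genes of the cell cycle had small differences. Of 15 S-phase genes 5 were called higher than in other cells (Hells, Mcm5, Ung, Mcm6 and Fen1) and none lower, with a median of 0.22. Of 15 G2/M genes Birc5 was called higher and Cenpf, Top2a and Ube2c lower, with a median of -0.06. The S-phase list summed to 2440 CPM at E9.5, then 2065 CPM at E10.5 in Fcer1g/Tyrobp cells, against 2214 and 1667 CPM in other cells. Among the 2 kinds at E10.5 it summed to 2006 CPM in C1q cells and 2153 CPM in Mpo/Prtn3 cells, and the G2/M list to 2022 and 2051 CPM.

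Transcripts of other cell types were low in the set. Against the other cells, all 7 cardiomyocyte genes (median -4.23), all 7 mesenchyme genes (median -2.93) and all 5 tested erythroid genes were called lower. The haemoglobin limit kept red blood cells out of the set but not out of the other cells. The erythroid calls were therefore fixed in advance. Against endothelial cells 1 of 5 erythroid genes (median 0.07), 3 of 7 mesenchyme genes (median -0.88) and 6 of 6 cardiomyocyte genes (median -2.39) were called lower. The endothelial list summed to 171 CPM at E9.5, then 124 CPM at E10.5, against 1636 and 2045 CPM in endothelial cells, and Cldn5, Emcn, Esam and Sox17 were at 0 at E9.5. The mesenchyme list summed to 15.2 and 83.3 CPM against 346 and 591 CPM in other cells, and the cardiomyocyte list to 125 and 51.6 CPM against 2557 and 751 CPM. Sox10 and Foxd3 of the neural crest were at 0 in all 99 cells. Haemoglobin took 0 to 0.00447% of UMIs in single cells at E9.5, then 0.333 to 0.796% (median 0.511%) at E10.5, close to the medians of endothelial cells (0.494%) and of all other cells (0.515%) there, and erythroid cells made up 13.8% of retained cells at E10.5. The part of transcripts from other cells in these values was not tested.

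Among the genes named as lowest were contractile and metabolic genes. Acta2, smooth muscle actin, stood at 15.2 and 4.69 CPM in Fcer1g/Tyrobp cells against 511 and 165 CPM in other cells (-5.08 ± 0.26). Tagln, another smooth muscle gene, stood at 0 and 3.91 CPM against 119 and 85.6 CPM (-4.71 ± 0.34). Arg1, arginase, which is also known as a gene of some adult macrophages, stood at 0 and 0.391 CPM against 112 and 36.5 CPM (-6.99 ± 0.56). Myl2, Myh7 and Myl3 of cardiac muscle, Hspb1, Mpped2 and Crip2 were also among the genes named as lowest.

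**Figure D4:**
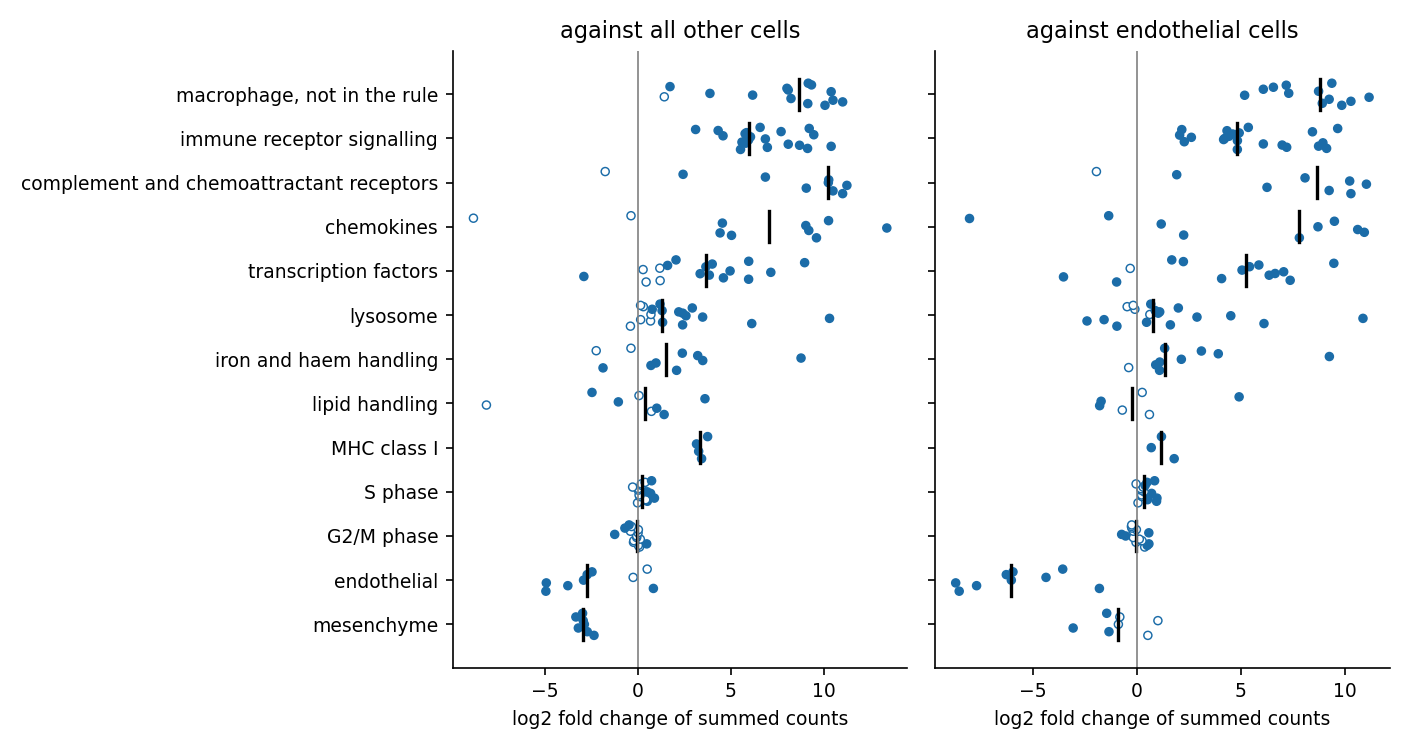
Log2 fold change of summed counts of Fcer1g/Tyrobp cells against all other cells (left) and endothelial cells (right), 1 point per tested gene of 13 gene lists with the rule genes left out. Filled points were called at an adjusted p under 0.05 by edgeR's quasi-likelihood test, and black bars are list medians. The medians of macrophage genes lie at 8.70 and 8.83, and those of S-phase genes at 0.22 and 0.35.

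Against endothelial cells, several genes were absent from one side. Cd14, the co-receptor for bacterial lipopolysaccharide, had 0 UMIs in the 513 endothelial cells and was at least 282-fold higher in Fcer1g/Tyrobp cells, taking 3 counts over the endothelial group as the limit. On the same limit C5ar1 was at least 242-fold higher, Fcrls at least 255-fold, Ccl3 and Ctss at least 272-fold each, Bcl2a1b at least 153-fold and Ccl4 at least 110-fold higher. Spi1 stood at 0.700 and 0.588 CPM in endothelial cells, its log2 fold change being 9.47 ± 0.30, and Trem2 had one of 9.66 ± 0.47. In the other direction, Clec14a, an endothelial surface protein, had 0 UMIs in the 99 cells and was at least 88.9-fold lower, with Gpr182 at least 79.9-fold, Mmrn2 at least 72.4-fold and Gimap4 at least 50.7-fold lower. Cldn5, the tight junction protein of endothelium, stood at 0 and 1.17 CPM against 221 and 456 CPM (-8.53 ± 0.39), and Esam at 0 and 0.391 CPM against 164 and 172 CPM (-8.70 ± 0.48). All 8 tested endothelial genes were called lower (median -6.15). The rule required Cdh5 at 0, and the endothelial cells were chosen by Cdh5 and Pecam1. The lower calls of endothelial genes were therefore fixed in advance. With DESeq2, 8 of these 25 genes were no longer called, among them Fcrls (adjusted p = 0.0718) and Clec14a (adjusted p = 0.168). Bcl2a1b has near-identical copies in the genome, so its reads could be divided among them.

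How the cells changed between E9.5 and E10.5 was not used by the rule, but with 1 library per stage and 12 cells at E9.5 no test was made. Among 7884 genes with 20 or more UMIs over both stages, 12% were at least 2-fold higher at E10.5 (946 genes) and 4.79% at least 2-fold lower (378 genes). For 267 and 223 of them the counting interval of the ratio also excluded equal levels, and the median log2 ratio was -0.04. With library sizes scaled by TMM the counts were 1101 and 237. None of the 6 rule genes passed 2-fold (median log2 ratio 0.21), nor did any of the 15 S-phase or 15 G2/M genes.

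Several chemokines and lysosomal genes stood higher at E10.5 in the summed set. Of 9 measured chemokines, 5 were at least 2-fold higher at E10.5 and 1 lower. Ccl2, which attracts monocytes, stood at 6.09 CPM at E9.5, then 106 CPM at E10.5 (log2 ratio 4.12, counting interval 2.25 to 7.17), while its ratio was 0.15 in endothelial cells and 0.67 in other cells. Of the 18 lysosomal genes, 5 were at least 2-fold higher and none lower (median 0.46). Ifi30, a lysosomal reductase used in antigen processing, stood at 12.2 and 134 CPM (3.46, 2.09 to 5.34), with ratios of 1.41 and 1.22 in the comparison cells. Of the 13 measured macrophage genes, 4 were at least 2-fold higher and none lower, and the same held for 6 of 6 measured erythroid genes and 5 of 5 mesenchyme genes, lists of other cell types whose part in the ratios was not tested. The share of C1q cells was 41.7% (15.2 to 72.3) at E9.5, then 64.4% (53.4 to 74.4) at E10.5, intervals that overlap, and its part in these ratios was not tested. In C1q cells the chemokine list summed to 1252 CPM at E9.5 (5 cells) and 990 CPM at E10.5, and the lysosome list to 4513 and 4902 CPM. The medians of single C1q cells had the other order for chemokines, with 194 CPM at E9.5 (0 to 4300) and 666 CPM at E10.5 (0 to 3915). For the lysosome list these medians were 2950 and 4748 CPM. In Mpo/Prtn3 cells the chemokine sums were 68.5 and 223 CPM and the lysosome sums 1667 and 2952 CPM. Among C1q cells alone, a comparison added after the data had been seen, 1033 of 6401 genes were at least 2-fold higher at E10.5 and 414 lower.

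Other ratios were shared by all cells of the libraries. Cebpb, a transcription factor of the inflammatory response, stood at 27.4 and 361 CPM in Fcer1g/Tyrobp cells (3.72, 2.79 to 4.85), but its ratio was 5.11 in endothelial cells and 5.18 in all other cells. Nme2 had a ratio of 3.69 (2.46 to 5.32) against 3.38 and 3.09, and Gm10320 one of 3.15 against 3.80 and 3.75. On the lower side, Tpm3-rs7 had -4.40 (-5.08 to -3.76) against -4.67 and -4.92, and Gm5611 had -4.00 against -4.45 and -4.67. For these 5 genes the cells around the Fcer1g/Tyrobp cells moved as far or nearly as far, and Tpm3-rs7, Gm5611 and Gm10320 are copies of other genes, between which reads may be divided.

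A few other genes had a smaller ratio in the comparison cells. Bag4, an inhibitor of cell death signalling, had a log2 ratio of -2.22 (-3.11 to -1.29) against -0.04 and -0.53. Nnat had 3.95 (2.08 to 7.0) against 1.11 and 0.46, and Cdkn1c, an inhibitor of the cell cycle, 4.37 (1.87 to 9.68) against 0.41 and 0.16, with 1 UMI at E9.5. Both genes stayed below the comparison cells. At E10.5 Nnat stood at 93.8 CPM against 294 CPM in endothelial cells and 741 CPM in other cells. Cdkn1c stood at 62.9 CPM against 4275 and 846 CPM. The part of transcripts from other cells in these 2 ratios was not tested. Of the other genes lower at E10.5, 76.9% of the E9.5 UMIs of Gpr84, 72.3% of those of Klf2 and 50% of those of Gsn came from a single cell. The differences between the classes were not tested.

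**Figure D5:**
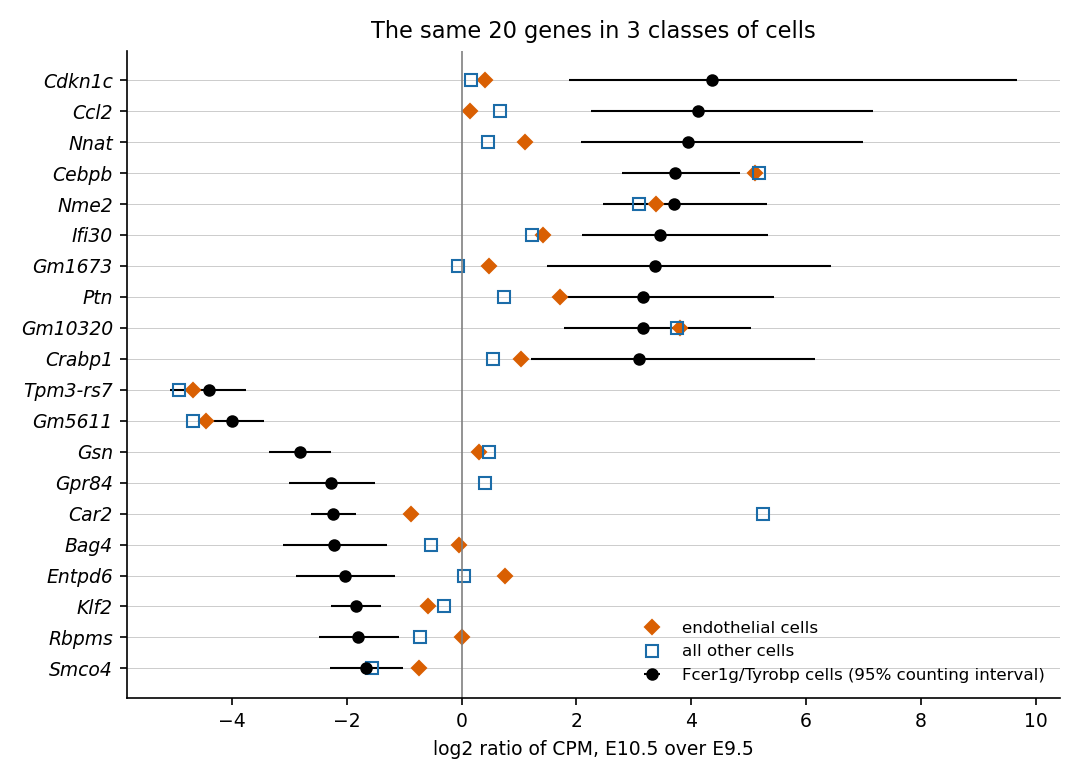
Log2 ratio of CPM at E10.5 over E9.5 for the 20 genes named by their ratio in Fcer1g/Tyrobp cells (black, with 95% counting intervals), with the ratios in endothelial cells (orange diamonds) and in all other cells (blue squares). Cebpb, Nme2, Gm10320, Tpm3-rs7 and Gm5611 lie near or beyond the same ratio in all 3 classes, while Ccl2 and Bag4 do not.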

How the data were processed

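Single-cell RNA was counted in 4 libraries, 1 per stage. Per the labels, the authors used 10x Genomics 3' version 2 chemistry, aligned reads to mm10 with Cell Ranger 3.1.0, and deposited raw UMI counts per gene and cell for barcodes called as cells. These counts were not normalized and covered 27998 genes. The Fcer1g/Tyrobp cells and the gene lists were chosen with earlier results of these data known.

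Cells with 1000 or more genes and at most 10% mitochondrial UMIs were retained. Endothelial cells, a comparison group, had Cdh5 and Pecam1 at 1 or more UMIs, fewer than 3 of the 6 rule genes and haemoglobin below 5%. Doublets were scored with Scrublet (scanpy 1.11.5), and the highest scores were marked at 0.8% per 1000 cells but kept. The late libraries held 74920880 UMIs (E9.5) and 142850521 (E10.5), and the Fcer1g/Tyrobp cells held 328339 and 2557821 of them. Counts were summed per library and class and given as CPM. Sums of E9.5 and E10.5 were compared with edgeR 4.0.16 (quasi-likelihood test, TMM scaling, library as block, Benjamini-Hochberg adjustment), in R 4.3.3 with limma 3.58.1. The block follows from the design, since both classes of a pair come from 1 library. Stages were compared by the ratio of CPM with exact 95% counting intervals and no test. The code was tested on simulated counts with 200 changed genes. Python 3.11.15, numpy 2.4.6, scipy 1.17.1, pandas 2.3.3 and matplotlib 3.10.9 were used.

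Named in each fit were the 15 genes with the highest and the 10 with the lowest log2 fold change among those called, changed the same way in both libraries and at 50 CPM or more in the mean of the class where they were high, without the rule genes. Named between stages were the 10 genes with the highest and 10 with the lowest ratio among those at 50 CPM or more and in 25% or more of the cells of 1 stage. Of each list, up to 5 genes with the highest level and defining genes at 0 were named, and further examples and all genes named between the C1q and Mpo/Prtn3 cells were chosen after their values were seen. Alternatives were DESeq2 1.42.0, other size factors, no low-count filter, no block, 2 or 4 of the 6 genes in the rule, and doublets removed. A further setting took libraries with 5 or more Fcer1g/Tyrobp cells, which were the same 2 libraries as in the main fit. Promoters came from a RefSeq table of GRCm38.p6. Itgam and Clec7a were not analysed here, and a few further genes are not reported here.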

Additional observations from a re-analysis of the deposited data

How the results depend on the processing

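Only 2 libraries held the cells, so leaving out a library leaves no spread to test and was not run. The E9.5 values rest on 12 cells. No paired analysis was possible because the labels give 1 library per stage and no replicate numbers, and the library block already joins both classes of a library. Against other cells, DESeq2 called 1184 genes higher and 1196 lower, and the fit without the library block 1506 and 1714. With 4 of the 6 genes required the split was 1683 and 3075. Against endothelial cells, DESeq2 called 660 genes higher and 712 lower, and 6 lysosomal genes higher. The causes were not tested. Between stages, thinning to 5000 UMIs left 3298 genes, with 401 at least 2-fold higher and 237 lower, a minimum of 10 UMIs left 9425 genes, with 1480 and 571, and TMM scaling gave 237 lower. With 2 of the 6 genes required, the share was 0.469% at E9.5 (19 cells in place of 12) and 1.32% at E10.5. The 128 summary values not listed as changed above, these shares included, moved by less than their counting interval or 1.5 times. Of 400 values of named genes in 8 settings, 391 kept their call, 9 lost it and 0 reversed. The setting that took libraries with 5 or more Fcer1g/Tyrobp cells held the same 2 libraries as the main fit. Its values could not differ, and they are counted among the 391 and the 128. Among those that lost it were, with DESeq2 against endothelial cells, Fcrls, Ccl3, Ctss, Ccl4, Bcl2a1b, Clec14a, Gpr182 and Mmrn2 (adjusted p from 0.0688 to 0.196).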
